A study of Mus musculus with 8 samples.

Results

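Mesothelial cells (MCs) were followed through 9 genes that mark them, chosen by name: Msln, Muc16, Upk1b, Upk3b, Lrrn4, Gpm6a, Pdpn, Wt1 and Calb2. Of these, 8 had a row among the 13687 genes of the table and all 8 were tested. Calb2 is not analysed here. Primary peritoneal MCs came from 2 WT and 2 Cav-1- littermate mice (B6.Cg-CAV1tm1mls/J, called CAV1-/- here), and the cells of each mouse were grown to confluence and then kept static or stretched for 24 h. The number of mice is that of the labels, and the study states more replicates for this experiment than the labels used here give. This gave 8 RNAseq libraries in 4 groups of 2 cultures (WT static, WT stretched, CAV1-/- static and CAV1-/- stretched). The cultures were digests of the parietal peritoneum, the CAV1 deletion was present in every cell of the animal, and the age of the mice is not given in the sources used here. Levels are TMM-normalized CPM, the reads of a gene per 1000000 reads after the library totals were adjusted by the TMM method.

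MCs form the single-layered epithelium that lines the peritoneum, pleura and pericardium. They carry both epithelial and mesodermal features: an apical coat of glycoproteins that keeps the surface smooth, keratins, and transcription factors of the embryonic coelomic lining such as Wt1. In peritoneal fibrosis MCs can pass through a mesothelial-to-mesenchymal transition (MMT), in which epithelial and mesothelial surface genes are lowered while matrix and contractile genes are raised. Caveolin-1, the product of Cav1, is the main coat protein of caveolae, membrane pits that flatten when the membrane is stretched. The comparisons asked how the markers differed between CAV1-/- and WT MCs in each condition, how they differed between stretched and static cultures, and whether the stretch response differed by genotype.

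The libraries held 9777738 to 21203938 recovered reads, with each of the 4 stretched libraries above all 4 static ones in depth, so depth and stretch cannot be told apart. A count of 3 reads, taken as the smallest detectable amount, was worth 0.146 to 0.308 CPM (counting error only). Cav1, the targeted gene, was at 764, 275, 570 and 247 CPM in the WT cultures (static replicates 1 and 2, then stretched replicates 1 and 2) and at 34.5, 18.9, 20.0 and 12.8 CPM in the CAV1-/- cultures, so every library matched the genotype of its label. Cav1 does not check the condition or the mouse of a library. Replicates 1 and 2 of a genotype are different mice, and the static and stretched cultures with the same number are from the same mouse. The cultures of CAV1-/- replicate 1 stood apart: 12 of 12 leukocyte markers were higher there than in the other 6 libraries, with a summed level of 4844 CPM static and 4842 CPM stretched against 76.0 to 466 CPM elsewhere. Lyz2, the lysozyme of macrophages and neutrophils, made up most of it (3648 and 3920 CPM, against 27.5 to 345 CPM). Summed fibroblast markers (9 genes) were lowest in those cultures as well, at 310 and 149 CPM, against 448 to 1897 CPM. The table also held 4 Y-linked genes, which were between 18.6 and 106 CPM in each library. In these bulk samples fewer MCs and less marker RNA per MC cannot be told apart.

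Promoter sequences of the markers that were furthest apart between genotypes are shown with that of Pdpn, the only marker with higher values on stretch in every mouse, a difference that did not pass the test. RefSeq (GRCm38.p6) gave 6 start sites for 5 of the markers, with Gpm6a having 2 starts. The 250 bases before each start were searched on both strands for 4 short motifs. GGAATG is the core bound by the TEAD partners of YAP. An E-box bound by Snail factors reads CAGGTG. For WT1 the core searched was GTGGGAG. The GATA motif was searched as AGATAA. The TEAD letters lay in 3 of the 6 windows, against 12.6% of 32851 windows of the same length, and no other motif was matched in any of the 6 (17.2%, 8.25% and 9.99% of all windows held the E-box, the WT1 core and the GATA motif). The match lay 196 bases before the start in Lrrn4, 241 bases before it in Upk3b (on the other strand) and 125 bases before the upstream start of Gpm6a, counted to the base of the match furthest from the start. In the runs below, written 5′ to 3′ on the strand of the gene, capitals mark the TEAD letters. The last bases of the Lrrn4 window lie within the gene model of GENCODE, which starts further upstream than the RefSeq one. The upstream start of Gpm6a lies outside its GENCODE gene model, which begins at 54954843. The window of the other Gpm6a start (chr8:54954478-54954727), close to that model, held 0 matches to the TEAD letters.
Lrrn4, chr2:132880863-132881112, minus strand: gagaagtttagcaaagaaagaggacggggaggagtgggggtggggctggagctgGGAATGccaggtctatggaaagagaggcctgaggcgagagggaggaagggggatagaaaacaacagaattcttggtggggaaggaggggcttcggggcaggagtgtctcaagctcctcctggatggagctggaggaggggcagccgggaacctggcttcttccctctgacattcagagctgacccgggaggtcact
Upk3b, chr5:136038246-136038495, plus strand: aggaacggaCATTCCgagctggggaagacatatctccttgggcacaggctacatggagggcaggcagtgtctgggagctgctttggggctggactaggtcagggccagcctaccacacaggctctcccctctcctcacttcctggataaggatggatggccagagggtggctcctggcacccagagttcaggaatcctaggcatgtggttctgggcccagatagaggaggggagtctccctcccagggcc
Gpm6a, upstream start, chr8:54779184-54779433, plus strand: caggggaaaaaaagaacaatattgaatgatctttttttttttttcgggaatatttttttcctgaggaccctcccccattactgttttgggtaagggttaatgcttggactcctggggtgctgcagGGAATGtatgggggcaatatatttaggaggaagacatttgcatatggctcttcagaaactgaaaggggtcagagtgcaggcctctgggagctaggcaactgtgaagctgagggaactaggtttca
Pdpn, chr4:143299565-143299814, minus strand: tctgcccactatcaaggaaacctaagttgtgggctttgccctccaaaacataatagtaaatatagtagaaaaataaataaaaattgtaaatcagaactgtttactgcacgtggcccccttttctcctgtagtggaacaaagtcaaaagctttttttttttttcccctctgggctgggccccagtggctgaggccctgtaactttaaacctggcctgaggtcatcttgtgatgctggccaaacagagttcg
A match is a description of letters and not a site that was measured here.

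Across genotypes, the surface markers of MCs were far lower in CAV1-/- cultures, while Wt1 and Pdpn were nearer to their WT levels. In 7 of the 8 markers the 4 CAV1-/- cultures all lay below the 4 WT ones, against 5.88% of the 13665 genes tested, and Wt1 was the exception. The median log2 difference of the 8 markers, CAV1-/- over WT on the log2(CPM + 1) scale, was −2.27 in static and −2.56 in stretched culture, while the median of all genes was −0.013 and 0. The leukocyte markers lay the other way on average: 12 of 12 were higher in CAV1-/- cultures, with medians of 2.33 and 2.02. This came mostly from 1 mouse, CAV1-/- replicate 1, where their sum was 4844 and 4842 CPM. In CAV1-/- replicate 2 the sum was 307 and 337 CPM, within the WT range of 76.0 to 466 CPM. In 3 of the 12 all 4 CAV1-/- cultures lay above all 4 WT ones, against 3.86% of all genes. The part of the leukocyte markers in the differences of the mesothelial markers was not tested. By limma with Benjamini-Hochberg adjustment only Lrrn4 fell past the threshold of 0.05, in both conditions (1 of 8 markers, against 0.0659% of all genes called lower in static and 0.0512% in stretched culture). At an unadjusted p under 0.05, 5 markers were lower in static culture and 6 in stretched culture, where 5.42% and 3.82% of all genes were. On the recovered reads DESeq2 called 4 markers in each condition (Lrrn4, Gpm6a, Upk1b and Muc16), of 309 genes called in static and 237 in stretched culture. With edgeR 0 markers were called in static and 1 in stretched culture, of 2 and 6 genes. Each group holds 2 cultures, so an exact two-sided permutation test on 1 gene could not give a p under 0.33.

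**Figure D1:**
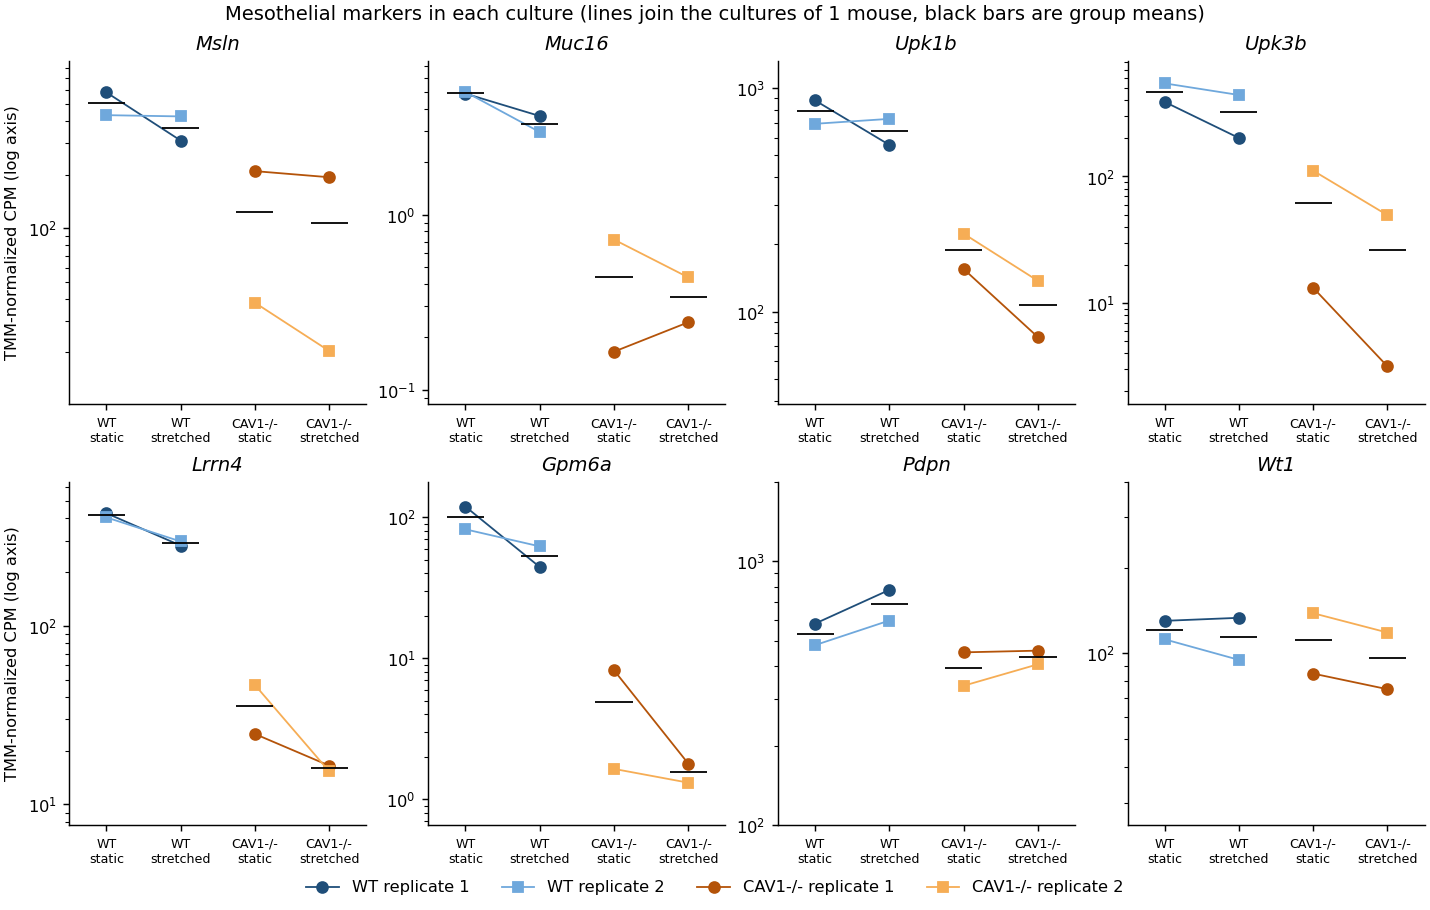
TMM-normalized CPM (log axes, with a range of their own in each panel) of the 8 markers in the 8 cultures; points are cultures, lines join the static and stretched culture of 1 mouse, and black bars are group means. All panels but Wt1 show the 4 CAV1-/- points below the 4 WT points, and Msln and Upk3b rank the CAV1-/- mice in opposite orders.

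Lrrn4, a leucine-rich repeat transmembrane protein used as a mesothelial surface marker, showed the clearest difference. It lies on chromosome 2 (GRCm38, 132868305 to 132880891, minus strand). Its level was 427 and 405 CPM in static and 282 and 297 CPM in stretched WT MCs, and 24.8 and 46.7 CPM in static and 16.5 and 15.3 CPM in stretched CAV1-/- MCs. The WT replicates lay close together in each condition, and the lowest static WT culture was 8.68-fold above the highest static CAV1-/- culture. The log2 difference was −3.57 (SE 0.27, limma adjusted p = 0.0361) in static and −4.10 (SE 0.27, limma adjusted p = 0.0208) in stretched culture. The WT mean was 11.6-fold higher in static and 18.2-fold higher in stretched culture. With edgeR the static value was −3.54 (edgeR adjusted p = 0.0840). The limma calls needed most libraries: the static call was lost when any single culture other than a static CAV1-/- culture was left out (WT static replicate 1 or 2, WT stretched replicate 1 or 2, or CAV1-/- stretched replicate 1 or 2, limma adjusted p = 0.0601 to 0.390), and so was the stretched one (limma adjusted p = 0.0829 to 0.233), with values between −4.15 and −3.53 throughout. With the 2 cultures of a mouse averaged, 2 mice against 2, Lrrn4 was at −3.84 (limma adjusted p = 0.0841) and 0 of 13665 genes were called (at an unadjusted p under 0.05, 3.96% were lower and 2% higher, and 5 of 8 markers were lower).

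The glycoproteins of the apical coat had lower values in all 4 CAV1-/- cultures, but neither passed the adjusted threshold in either condition. Mesothelin (Msln, chromosome 17, 25748613 to 25754378, minus strand) is a lipid-anchored glycoprotein that binds mucin 16. It was at 581 and 432 CPM in static WT, 311 and 425 CPM in stretched WT, 209 and 38.0 CPM in static CAV1-/- and 193 and 20.4 CPM in stretched CAV1-/- MCs. The groups did not overlap, but the CAV1-/- mice differed from each other by 5.50-fold in static and 9.50-fold in stretched culture, with replicate 1 the higher. The log2 difference was −2.47 (SE 1.16, limma adjusted p = 0.690) in static and −2.50 (SE 1.16, limma adjusted p = 0.871) in stretched culture, within the spread between mice. Muc16, the large transmembrane mucin also known as CA125, was scarce: 4.90 and 5.01 CPM in static WT, 3.65 and 2.96 CPM in stretched WT, 0.165 and 0.720 CPM in static CAV1-/- and 0.243 and 0.438 CPM in stretched CAV1-/- MCs. These levels stood for 48 to 74 reads in the WT and 2 to 8 reads in the CAV1-/- libraries, where the lowest is under the floor of 3 reads. The log2 difference was −2.07 (SE 0.28, limma adjusted p = 0.0798) in static and −1.68 (SE 0.28, limma adjusted p = 0.178) in stretched culture, and the added 1 CPM understates it at such levels.

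The uroplakins are tetraspan and single-pass membrane proteins known from the plaques of the bladder surface, and both are also used to mark mesothelium. Upk1b (chromosome 16, 38773184 to 38800328, minus strand), the tetraspanin, was at 881 and 693 CPM in static WT, 557 and 729 CPM in stretched WT, 155 and 223 CPM in static CAV1-/- and 76.9 and 137 CPM in stretched CAV1-/- MCs. All CAV1-/- cultures lay under the WT range. Its log2 difference was −2.06 (SE 0.33, limma adjusted p = 0.114) in static and −2.62 (SE 0.33, limma adjusted p = 0.0963) in stretched culture. Upk3b (chromosome 5, 136038496 to 136046487, plus strand), a single-pass uroplakin, was at 389 and 545 CPM in static WT, 202 and 441 CPM in stretched WT, 13.2 and 111 CPM in static CAV1-/- and 3.15 and 49.5 CPM in stretched CAV1-/- MCs. Again the groups did not overlap, and here CAV1-/- replicate 2 was the higher, by 8.43-fold in static and 15.7-fold in stretched culture. The log2 difference of Upk3b was −3.53 (SE 1.39, limma adjusted p = 0.583) in static and −4.37 (SE 1.39, limma adjusted p = 0.596) in stretched culture.

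Msln and Upk3b therefore ranked the CAV1-/- mice in opposite orders, in static and in stretched culture alike. Only 2.31% of all genes differed by more than 2 on the log2 scale between the CAV1-/- mice in the same direction in both conditions, and these markers, a pair chosen after their values were seen, were 2 of them. The leukocyte signal moved with this contrast: its sum was 4844 and 4842 CPM in replicate 1, where Msln was the higher and Upk3b the lower, and 307 and 337 CPM in replicate 2. Its part in the result was not tested. Taken 1 culture at a time against the WT mean of the same condition, all 8 markers were lower in both cultures of replicate 1. Their median log2 difference was −2.34 static and −2.41 stretched (median of all genes −0.027 and −0.0012). In replicate 2, 7 of 8 were lower, with a median of −1.92 static and −2.39 stretched (median of all genes −0.0082 and 0), and Wt1 was at 0.19 and 0.073. The leukocyte sum of that mouse, 307 and 337 CPM, lay below WT replicate 1 (448 and 466 CPM) and above WT replicate 2 (76.0 and 80.9 CPM).

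Gpm6a (chromosome 8, 54954843 to 55060871, plus strand), a tetraspan glycoprotein best known from neurons and also abundant in mesothelium, had the largest mean difference of the 8. It was at 119 and 82.3 CPM in static WT, 44.5 and 62.3 CPM in stretched WT, 8.24 and 1.64 CPM in static CAV1-/- and 1.80 and 1.31 CPM in stretched CAV1-/- MCs. The WT mean was 20.4-fold higher in static and 34.3-fold higher in stretched culture. The log2 difference was −4.34 (SE 0.57, limma adjusted p = 0.0798) and −4.40 (SE 0.57, limma adjusted p = 0.106), short of the threshold. Unnamed gene models overlap Gpm6a on the same strand, none of them with a row, and reads they share cannot be told apart.

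Pdpn and Wt1 behaved otherwise. Podoplanin (Pdpn, chromosome 4, 143267431 to 143299564, minus strand) is a mucin-type membrane protein that ties ezrin and moesin to the membrane and serves to sort MCs and lymphatic endothelium. It was at 580 and 481 CPM in static WT, 779 and 596 CPM in stretched WT, 451 and 337 CPM in static CAV1-/- and 458 and 407 CPM in stretched CAV1-/- MCs. The groups did not overlap, but the gap was narrow, with the lowest static WT culture 1.07-fold above the highest static CAV1-/- one. The log2 difference was −0.44 (95% interval −0.96 to 0.087, limma adjusted p = 0.707) in static and −0.66 (95% interval −1.18 to −0.13, limma adjusted p = 0.621) in stretched culture. Wt1 (chromosome 2, 105126529 to 105173616, plus strand), the zinc finger transcription factor of the coelomic lining, was at 130 and 112 CPM in static WT, 133 and 94.9 CPM in stretched WT, 85.0 and 138 CPM in static CAV1-/- and 74.9 and 118 CPM in stretched CAV1-/- MCs. Its groups overlapped in both conditions. The log2 difference of Wt1 was −0.15 (95% interval −0.95 to 0.64, limma adjusted p = 0.959) in static and −0.25 (95% interval −1.05 to 0.54, limma adjusted p = 0.994) in stretched culture, and without CAV1-/- replicate 1 it was 0.19 and 0.073. These intervals do not show equal levels.

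**Figure D2:**
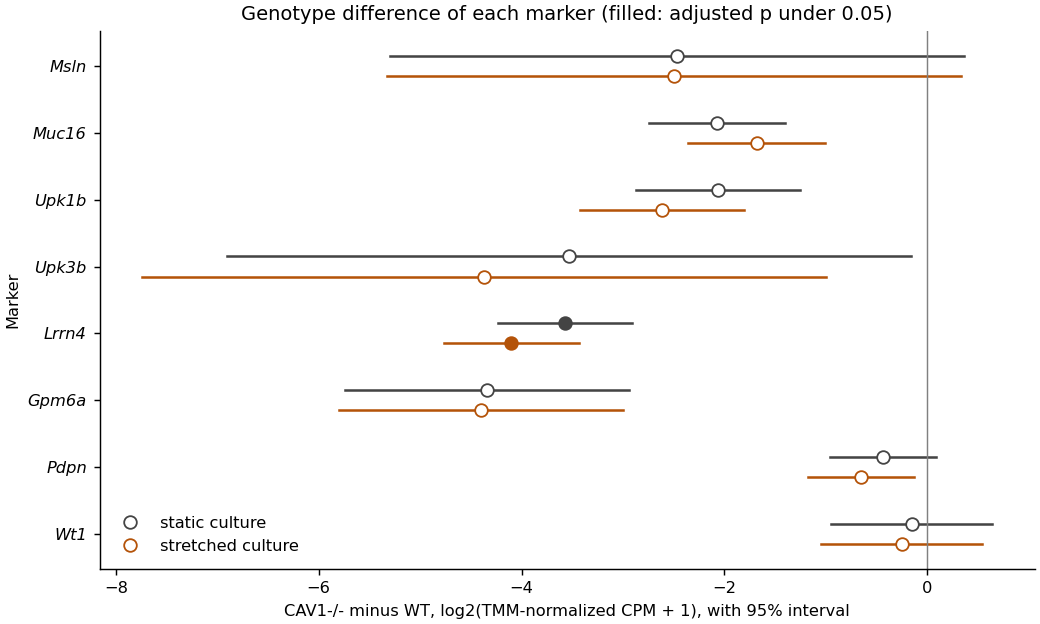
Log2 difference of each marker, CAV1-/- minus WT on the log2(CPM + 1) scale, in static (grey) and stretched (brown) culture, with the 95% interval of limma (2 cultures a group, spread shared over 4 groups); filled points passed an adjusted p of 0.05. Lrrn4 is filled in both conditions, Gpm6a lies furthest left, the intervals of Msln and Upk3b are the widest, and the intervals of Wt1 and Msln in both conditions and of Pdpn in static culture span 0.

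With the surface markers low and Pdpn and Wt1 nearer to their WT levels, the make-up of the set differed between genotypes. The summed level of the 8 markers was 2312 to 3112 CPM in WT and 750 to 947 CPM in CAV1-/- cultures. Pdpn made up 17.5% to 33.7% of that sum in WT and 37.6% to 55.5% in CAV1-/- cultures, with no overlap. Wt1 made up 3.59% to 5.77% in WT and 8.97% to 15.8% in CAV1-/- cultures. Msln took 22.1% and 23.4% of the sum in CAV1-/- replicate 1 and 4.24% and 2.72% in replicate 2, either side of its WT range of 13.5% to 18.7%. These shares are of reads and are not scaled by gene length.

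**Figure D3:**
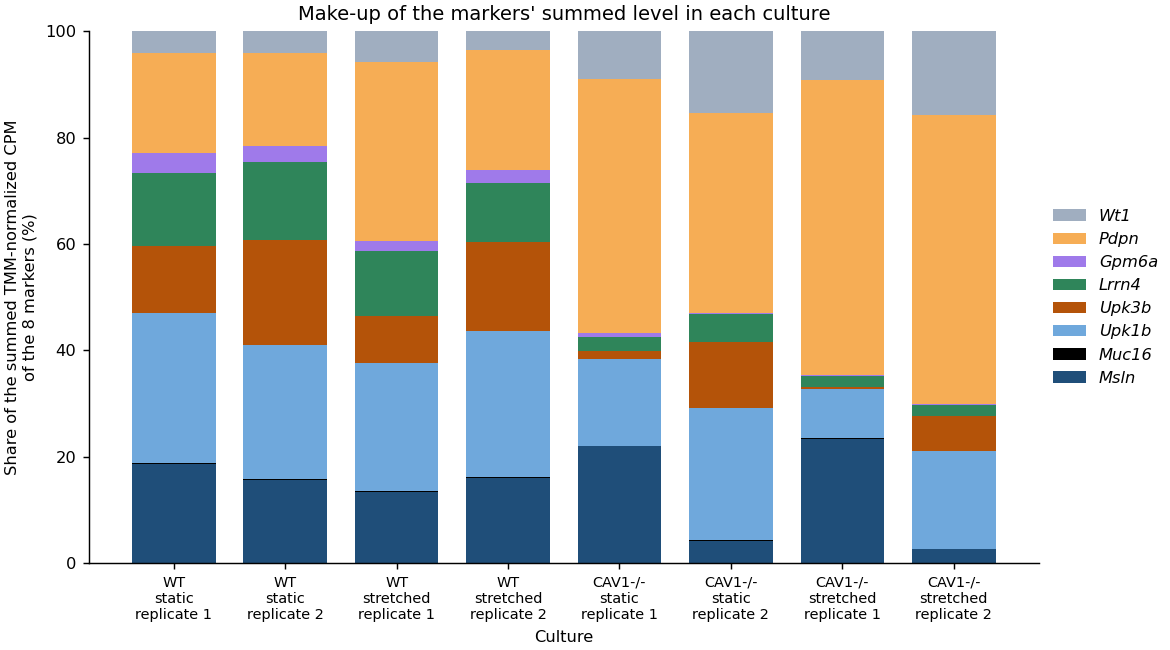
Share (%) of each marker in the summed TMM-normalized CPM of the 8 markers, for each of the 8 cultures (stacked bars, 1 bar a culture). Pdpn takes 37.6% to 55.5% of the bar in CAV1-/- cultures, the Msln block is tall in CAV1-/- replicate 1 and short in replicate 2, and the Muc16 block is too thin to see in CAV1-/- cultures.

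Per kb of exon (GENCODE M21 lengths, Muc16 left out because its identifier was not matched), the order of mean levels in static WT MCs was Upk1b at 377, Pdpn at 292, Msln at 165, Upk3b at 132, Lrrn4 at 112, Gpm6a at 31.3 and Wt1 at 19.5 CPM per kb. Upk3b and Lrrn4 overlapped there between replicates, as did Msln and Upk3b. In static CAV1-/- MCs Pdpn came highest at 217, followed by Upk1b at 90.6, Msln at 40.4, Wt1 at 18.0, Upk3b at 17.6, Lrrn4 at 9.62 and Gpm6a at 1.54 CPM per kb. Wt1 was thus placed above Upk3b, Lrrn4 and Gpm6a, although Wt1 and Upk3b overlapped between the CAV1-/- replicates. The place of Wt1 depends on the length used: per kb of the longest transcript it was at 39.2 CPM per kb in static WT MCs, already above Gpm6a. In static WT MCs the 5 highest markers were above 97.2% to 99.2% of 13597 genes per kb, while Gpm6a was above 88.8% of genes in WT and above 23.7% in CAV1-/- MCs.

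On stretch, most of the surface markers were lower than in the static culture of the same mouse. Compared within each mouse, Msln, Upk3b, Lrrn4 and Gpm6a were lower on stretch in all 4 mice (4 of 8 markers, against 16.9% of all genes), and Pdpn was higher in all 4 (1 of 8, against 14.5%, which is the background share). The mean of the 4 within-mouse differences was tested by limma: 1 of 8 markers, Upk3b, fell past the adjusted threshold, against 1.22% of all genes called lower. At an unadjusted p under 0.05, 5 markers were lower, against 12% of all genes, and 1 was higher, Pdpn, against 9.63%. The median difference of the 8 markers was −0.52, beside −0.0093 for all genes. With 4 mice, an exact two-sided sign-flip permutation test on 1 gene cannot give a p under 0.13.

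Upk3b on stretch was at 51.9% and 80.9% of its static level in WT replicates 1 and 2, and at 23.9% and 44.5% in CAV1-/- replicates 1 and 2. Its mean log2 change was −1.04 (SE 0.20, limma adjusted p = 0.0496), at the edge of the threshold. The call was lost when either CAV1-/- mouse or WT replicate 1 was left out (limma adjusted p = 0.101 to 0.141, log2 changes −1.08 to −0.80), but not without WT replicate 2 (limma adjusted p = 0.0283). Lrrn4 was at 65.9%, 73.3%, 66.5% and 32.8% of the static level in the same order of mice (−0.79, SE 0.17, limma adjusted p = 0.0654). Gpm6a was at 37.3%, 75.7%, 21.8% and 79.9% (−0.93, SE 0.25, limma adjusted p = 0.0981), with the lower percentage in replicate 1 of each genotype. Msln was at 53.6% and 98.4% in WT and 92.4% and 53.5% in CAV1-/- mice (−0.48, SE 0.16, limma adjusted p = 0.149), which in WT replicate 2 is hardly below its static level. Upk1b was lower in 3 of 4 mice, at 63.3%, 105%, 49.6% and 61.5% (−0.57, SE 0.16, limma adjusted p = 0.0981), and was called when WT replicate 2 was left out (limma adjusted p = 0.0272). Pdpn was at 134%, 124%, 101% and 121% of its static level (0.26, SE 0.077, limma adjusted p = 0.12), and in CAV1-/- replicate 1 the difference was 0.021 on the log2 scale. Wt1 (−0.15, limma adjusted p = 0.243) and Muc16 (−0.28, limma adjusted p = 0.346) were lower in 3 of 4 mice each.

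**Figure D4:**
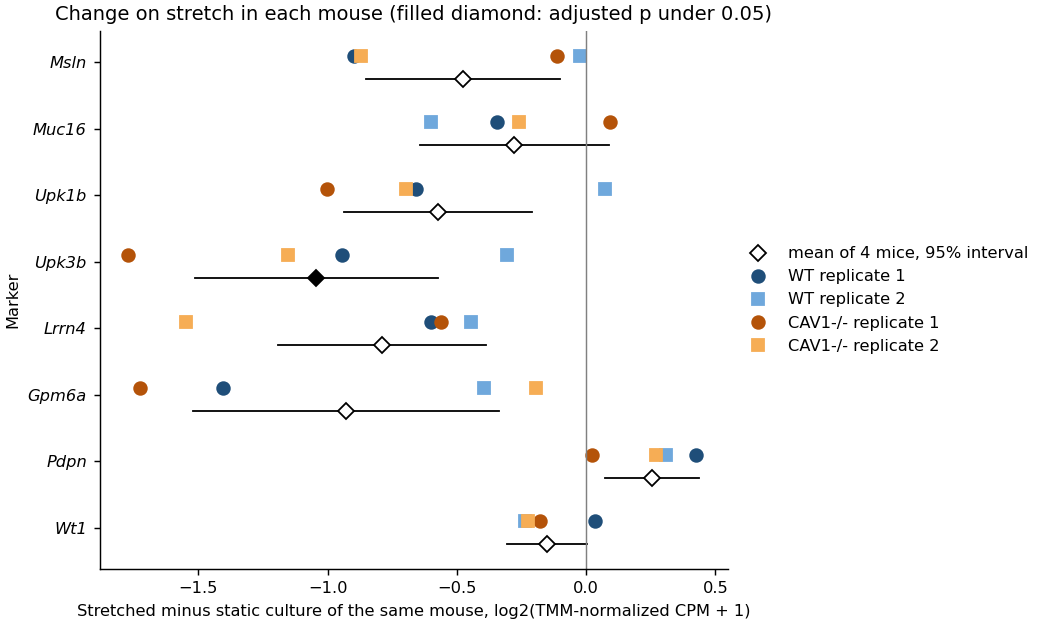
Stretched minus static culture of the same mouse on the log2(CPM + 1) scale for the 8 markers; coloured points are the 4 mice and diamonds their mean with the 95% interval of limma (filled where the adjusted p was under 0.05). Msln, Upk3b, Lrrn4 and Gpm6a lie left of 0 in all 4 mice, Pdpn lies right of 0 in all 4, and only the Upk3b diamond is filled.

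Within a single genotype, 2 stretched against 2 static cultures, 0 of 8 markers and 0% of all genes passed the adjusted threshold of limma, either in WT or in CAV1-/- MCs. At an unadjusted p under 0.05, 0 of 8 markers differed in WT MCs, where 1.45% of all genes were lower and 0.82% higher. In CAV1-/- MCs 2 markers, Lrrn4 and Upk1b, were lower, against 1.02% of all genes lower and 1.08% higher. These counts ignore that both cultures came from the same mouse. With the mouse as block, 3 markers in WT MCs (Pdpn higher, Upk3b and Lrrn4 lower) and 4 in CAV1-/- MCs (Upk3b, Upk1b, Lrrn4 and Gpm6a, lower) had an unadjusted p under 0.05 in limma, of 1979 and 1824 such genes, and 0 of 8 passed the adjusted threshold. edgeR and DESeq2 on the recovered reads called 0 of 8 markers in either genotype. The stretch response was not shown to differ between genotypes at the adjusted threshold. Without the pairing, the interaction of limma called 0 of 8 markers and 0% of all genes, and edgeR and DESeq2 also called 0. In that limma fit 0 of 8 markers had an unadjusted p under 0.05 (0.132% of all genes lower and 0.351% higher). Without the pairing, the interaction of Lrrn4 had a 95% interval of −1.47 to 0.41 and that of Pdpn one of −0.96 to 0.52 on the log2 scale. With the mouse as block the intervals were −1.26 to 0.20 and −0.55 to 0.10. In the block fit 1 of 8 markers, Upk3b, had an unadjusted p under 0.05 for the interaction, of 581 such genes. The interaction of Upk3b was −0.84 there (95% interval −1.50 to −0.18), and 0 of 8 markers passed the adjusted threshold. With the mouse as a random effect, 0 of 8 markers had an unadjusted p under 0.05, of 656 such genes. For Lrrn4 and Pdpn, differences within the bounds of the block were not excluded with 2 mice a genotype.

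Other genes of the mesothelium were listed beside the markers: keratins, tight junction genes, and transcription factors and matrix genes known from MCs. Of 18 listed, 17 were tested, and 16 were lower on average in static CAV1-/- than in WT MCs (against 52.2% of all genes) and 15 in stretched culture (against 50%), with median log2 differences of −1.34 and −0.94. Krt8 and Cldn15 passed the adjusted threshold in both conditions. Krt8, a keratin of simple epithelia, was at 224 to 289 CPM in WT and 33.5 to 41.2 CPM in CAV1-/- cultures, a log2 difference of −2.66 (limma adjusted p = 0.0134) static and −2.74 (limma adjusted p = 0.0114) stretched. Cldn15, a claudin that forms cation-permeable tight junctions, was at 17.5 to 30.2 CPM in WT and 0.825 to 2.06 CPM in CAV1-/- cultures, a log2 difference of −3.25 (limma adjusted p = 0.0361) and −3.36 (limma adjusted p = 0.0265). Both calls were lost with the cultures of each mouse averaged (limma adjusted p = 0.0882 for Krt8 and 0.165 for Cldn15) and when any 1 mouse was left out (0.0979 to 0.497), and the static Cldn15 call also with an estimated correlation within mice (limma adjusted p = 0.0661). Among single cultures, leaving out any of the 8 ended the Cldn15 calls (limma adjusted p = 0.0517 to 0.255), and the Krt8 call was lost in static culture without either static WT culture, static CAV1-/- replicate 1 or either stretched CAV1-/- culture (0.0589 to 0.186) and in stretched culture without stretched WT replicate 2 or either stretched CAV1-/- culture (0.0935 to 0.159).

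On stretch over the 4 mice, 12 of these 17 genes were lower on average, against 52.3% of all genes. Of the 17, 3 passed the threshold, each of them lower, against 1.22% of all genes called lower. They were the keratin Krt7 (−0.88, limma adjusted p = 0.0286), the zinc finger gene Bnc1 (−0.45, limma adjusted p = 0.0427) and the matrix gene Efemp1 (−1.40, limma adjusted p = 0.0287). Of the 6 podoplanin partners tested, 3 were lower on average on stretch and 1 was called lower (against 1.22% of all genes). The gene called was ezrin (Ezr), the linker from membrane to actin, at −0.57 (limma adjusted p = 0.0188). Leaving out 1 mouse ended most of these calls: without CAV1-/- replicate 1 or CAV1-/- replicate 2 none of the 4 passed, without WT replicate 1 only Ezr did, and without WT replicate 2 Krt7, Efemp1 and Ezr did. In static WT MCs Ezr was at 1052 and 797 CPM, and in stretched WT MCs at 625 and 617 CPM.

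The closest relatives of the markers were mostly without a value (4 of 18 listed had one), and 0 of the 4 passed the threshold of limma in any comparison. Lrrn4cl, whose product resembles Lrrn4, was at 35.5 to 104 CPM in WT and 11.8 to 21.0 CPM in CAV1-/- cultures. Gpm6b, the paralog of Gpm6a, was at 1.45 to 2.47 CPM in WT and 3.46 to 5.65 CPM in CAV1-/- cultures, and Lrrn2 at 0.888 to 1.48 CPM in WT and 1.70 to 8.21 CPM in CAV1-/- cultures. Both of these paralogs lay higher in all 4 CAV1-/- cultures than in all 4 WT ones (2 of 4 relatives, against 3.86% of all genes), at low levels, where Gpm6a and Lrrn4 lay lower. Muc1, a second transmembrane mucin, was between 0.328 and 1.21 CPM in all cultures. Of 12 MMT genes 0 were called in either genotype comparison, with medians of 0.26 static and 0.34 stretched (at an unadjusted p under 0.05, 1 was higher and 1 lower in each, where 2.76% of all genes were higher in static and 2.44% in stretched culture).

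Lists of other cell types gave the setting of these values. Of the 12 leukocyte markers, higher on average as described, 0 were called by limma in either genotype comparison (1 was higher at an unadjusted p under 0.05 in static and 0 in stretched culture). Smooth muscle and pericyte markers (6 of 6 higher on average in CAV1-/- MCs, medians 0.72 and 0.68, 0 called by limma and 0 at an unadjusted p under 0.05 in either condition) summed to 1338 and 1098 CPM in CAV1-/- replicate 1, 452 and 470 CPM in CAV1-/- replicate 2 and 217 to 715 CPM in WT cultures. Endothelial markers (7 genes) summed to 42.6 to 77.6 CPM in all 8 cultures. Kdr made up most of the sum in 6 of them and Flt4 in CAV1-/- replicate 1. In that mouse, static and stretched, 5 of the 7 exceeded their values in every other library. Among these were Flt4 (26.1 and 45.3 CPM, against 1.97 to 8.83 CPM) and Vwf (10.6 and 12.5 CPM, against 1.60 to 3.71 CPM). Kdr was lower there (7.75 and 9.12 CPM, against 32.3 to 66.0 CPM), and Tek lay within the range of the other libraries. The study lists KDR among the markers that MCs share with endothelium. The defining Cdh5 was between 0.247 and 1.65 CPM, and Emcn was at 0 reads in both cultures of CAV1-/- replicate 2. Skeletal muscle (1 gene) and adipocyte markers (2 genes) summed to at most 5.04 and 28.6 CPM. Fibroblast markers lay in the direction of the mesothelial markers, with medians of −0.43 static and −0.23 stretched. In CAV1-/- MCs 8 of 9 were lower on average in static culture (against 52.2% of all genes) and 9 of 9 in stretched culture (against 50%). By limma 0 of them were called, and 0 had an unadjusted p under 0.05 in either condition. Their sums overlapped between genotypes (448 to 1897 CPM in WT and 149 to 1738 CPM in CAV1-/- cultures). In none of these lists did a sum separate all CAV1-/- from all WT cultures in the direction of the mesothelial markers. The summed mesothelial markers did, but they were chosen with earlier results of these data known. Several of the sums rest mostly on few genes, so they do not measure how many cells of a type were present. On stretch 1 fibroblast marker, Cd34, was called lower (−0.53, limma adjusted p = 0.0443), and 1 neural marker, Ncam1, was called higher (0.53, limma adjusted p = 0.0493, a direction called in 1.03% of all genes), and both calls were lost without any 1 of the 4 mice (limma adjusted p = 0.0509 to 0.147). Their part in the marker differences was not tested.

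**Figure D5:**
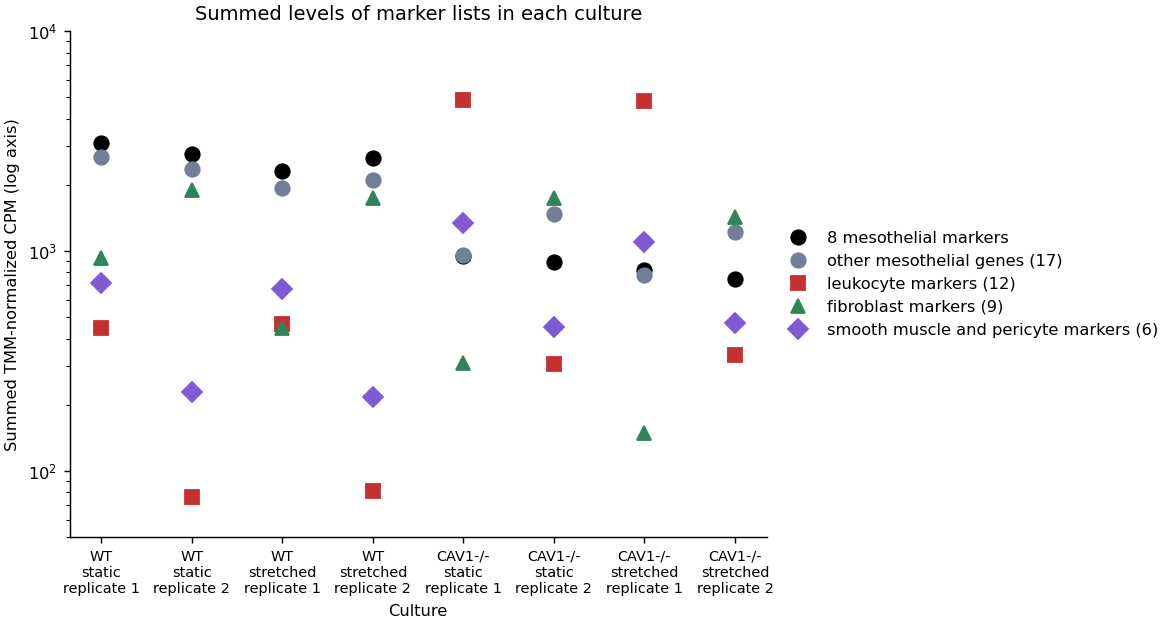
Summed TMM-normalized CPM (log axis) of 5 gene lists in each of the 8 cultures, 1 point a list and culture. The sum of the 8 markers is at least 2312 CPM in WT cultures and at most 947 CPM in the cultures of both CAV1-/- mice. The leukocyte sum is highest in CAV1-/- replicate 1, at 4844 and 4842 CPM. It is at 307 and 337 CPM in CAV1-/- replicate 2 and at 76.0 to 466 CPM in WT cultures.

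The 10 genes outside the set whose log2 levels followed the mean of the standardized markers most closely over the 8 libraries (Pearson r, as a description over libraries that share mice) were Chp1, Pkhd1l1, Fbln5, Tdrp, Musk, Gata5, Raet1e, Prss12, Cobll1 and Zfp791, with r from 0.980 to 0.988. Among the markers themselves r was 0.989 for Lrrn4, 0.980 for Upk1b, 0.979 for Muc16, 0.953 for Gpm6a, 0.882 for Upk3b, 0.728 for Pdpn, 0.716 for Msln and 0.482 for Wt1. Each marker is itself part of the mean it was set against, which raises its r. These values are therefore not comparable with those of the 10 outside genes. Gata5, a GATA transcription factor, was between 7.58 and 17.1 CPM in WT and between 0.146 and 0.602 CPM in CAV1-/- cultures. In CAV1-/- replicate 1 it was at 0.165 CPM static and 0.146 CPM stretched, under or at the floor of 3 reads. Pkhd1l1, a large fibrocystin-like membrane protein, was at 304 and 141 CPM in static WT and 8.49 and 7.92 CPM in static CAV1-/- MCs, a log2 difference of −4.50 (limma adjusted p = 0.0398). The log2 difference in stretched culture was −4.73 (limma adjusted p = 0.0297). With the cultures of each mouse averaged, Pkhd1l1 was at −4.62 and no longer passed (limma adjusted p = 0.0841). Chp1, the closest of the 10, differed little in size, at 183 and 177 CPM in static WT and 140 and 143 CPM in static CAV1-/- MCs.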

How the data were processed

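PolyA RNA of 8 mouse MC cultures was sequenced with single reads and an unstranded kit. Per the study's methods, the authors removed adapters (Cutadapt), quantified reads against the GRCm38 transcriptome (RSEM, expected counts) and normalized them by the TMM method. The deposited signal is TMM-normalized CPM, without genes of low value. Each value was a whole multiple of 1 read of its library (100% whole within 0.05 of a read), so reads could be recovered. Genes with at least 1 CPM in at least 2 of the 8 libraries were kept here (22 removed, 13665 tested). log2(value + 1) was fitted with limma 3.58.1 (R 4.3.3): 1 mean per group, an intensity trend and Benjamini-Hochberg adjustment. Within-mouse differences, and the means of each mouse, were fitted likewise. Static and stretched cultures with the same number came from the same mouse, per the labels, and deviated together (r = 0.703 in WT, 0.85 in CAV1-/-). With the mouse as block, no call of a marker for stretch changed. edgeR 4.0.16 and DESeq2 1.42.0 were run on the recovered reads, other pseudocounts, filters and scalings were tried, and cultures or mice were left out in turn. The fits were also run on simulated counts, with a set spread between mice that was not estimated from these data. That run does not bear on the calls reported here.

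The markers and lists were chosen with earlier results of these data known. Named genes are the markers, Cav1, listed genes that passed the adjusted threshold, genes that define another cell type whose level moves with a result, and the 10 genes most like the markers. Relatives of the markers, Kdr, Flt4, Vwf, Tek, Cdh5, Emcn and unadjusted stretch results were named after their values were seen. Gene positions are from GENCODE M21 (GRCm38) and promoters from RefSeq (GRCm38.p6). Replicates within a group are cultures of different mice.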

Additional observations from a re-analysis of the deposited data

How the results depend on the processing

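Log2 differences of the markers kept their sign in 591 of 596 repeats over the genotype comparisons and the stretch difference over 4 mice. The 5 that turned were Wt1, never called: leaving out cultures or mice gave −0.50 to 0.19 in static culture, −0.58 to 0.073 in stretched culture and −0.54 to 0.13 with the cultures of each mouse averaged. Of the 8 markers, DESeq2 called 4 in static and 4 in stretched culture (309 and 237 of all genes), edgeR 0 and 1 (2 and 6), the mouse as a random effect 0 and 1 (2 and 6), and the fit on the 4 libraries compared 0 and 0 (0 and 0). The replicate block, which for genotype pairs different mice by number, gave 4 and 3 markers (246 and 110 of all genes); same-numbered cultures of the 2 genotypes correlated at r = 0.522 static and 0.484 stretched, a hint from the data and not from the design. For stretch in CAV1-/- MCs the block called 1 gene and DESeq2 7, and for stretch in WT MCs DESeq2 called 3, no marker among them. Averaged over conditions, the random effect called 10 genes and 1 marker, Lrrn4 (limma adjusted p = 0.0429). Without the intensity trend, 6 genes were called for genotype in static culture and 3 for stretch over 4 mice. The Upk3b call on stretch was lost (0 markers) without the trend, with a pseudocount of 0.1 and with robust eBayes. Leaving out a culture or a mouse left 0 to 1 markers and 0 to 8 genes in static culture, 0 to 2 markers and 0 to 7 genes in stretched culture, and 0 to 2 markers and 0 to 145 genes for stretch over 4 mice. No other setting moved these counts by over 1.5 times. The cause was not tested. Muc16 is limited by its 2 to 8 reads in CAV1-/- libraries.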
